A study of Homo sapiens with 12 samples.

Results

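The BCL2 family members described here were 10 genes, chosen by symbol and found in the deposited table by their Ensembl identifiers: the survival genes MCL1, BCL2, BCL2L1 and BCL2A1, the effector genes BAX and BAK1, and the BH3-only genes PMAIP1, BBC3, BCL2L11 and BID. All 10 were among the 62757 rows of the table and among the 15524 genes that had a mean of at least 3 and were tested. The cells were U87, also called U87MG, an established human glioblastoma line. They were kept for 72 h with vehicle, whose composition the labels do not give, or with 1 of 3 compounds. The dose was 30 µM for compound 1, 10 µM for compound 4 and 5 µM for compound 5. Poly(A) RNA was sequenced from 3 biological replicates per group, 12 libraries in all, described in the labels as independent. The labels number the compounds without naming the molecules, and the doses differ, so a pair of compounds is compared only as the treatments were given. Values are regularized log (rlog) values, a log2 scale of normalized counts on which each gene is pulled towards its own mean, more so the fewer its reads. Differences on this scale understate changes in counts, and the depth of the libraries is unknown because no counts were given.

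Proteins of the BCL2 family decide whether the outer mitochondrial membrane is opened during apoptosis. BAX and BAK1 form the pore, the survival proteins bind and hold them and the BH3-only proteins, and BH3-only proteins released or induced by stress occupy the survival proteins or activate the effectors. MCL1 is a short-lived survival protein, and PMAIP1, also known as NOXA, binds it with preference. The survival proteins MCL1 and BCL-xL, which BCL2L1 encodes, are widely studied as drug targets in glioblastoma. Gene-level values do not separate splice forms of opposite function, such as those of MCL1 and BCL2L1, and say nothing of protein level or cleavage.

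Promoters were looked up for the members in the RefSeq table on GRCh38.p14, which matched 9 of 10 members, all but MCL1, with 14 windows of 300 bases, each reaching from 250 bases before to 50 after an annotated start. The 4 windows shown all hold a match and belong to members that rose with compound 4 (PMAIP1, BAX and BAK1) or with compound 5 (BID). For BID 1 of its 5 windows is given, taken from those with a match. BCL2A1 also rose with compound 4 and BCL2 with compound 5, and their windows held no match and are not shown. Capitals mark matches, on either strand, to the cAMP response element core TGACGT, the AP-1 site TGANTCA, the E-box CACGTG or the heat shock element core GAANNTTC, and no matches overlap in these windows.
PMAIP1, chr18:59899746-59900045, plus strand: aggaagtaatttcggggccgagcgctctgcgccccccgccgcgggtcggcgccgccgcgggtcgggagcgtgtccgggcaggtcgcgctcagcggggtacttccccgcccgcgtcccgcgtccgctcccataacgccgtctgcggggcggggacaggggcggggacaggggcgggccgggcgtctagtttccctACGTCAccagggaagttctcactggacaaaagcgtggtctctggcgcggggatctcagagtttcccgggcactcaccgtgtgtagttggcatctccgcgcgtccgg
BAX, chr19:48954625-48954924, plus strand: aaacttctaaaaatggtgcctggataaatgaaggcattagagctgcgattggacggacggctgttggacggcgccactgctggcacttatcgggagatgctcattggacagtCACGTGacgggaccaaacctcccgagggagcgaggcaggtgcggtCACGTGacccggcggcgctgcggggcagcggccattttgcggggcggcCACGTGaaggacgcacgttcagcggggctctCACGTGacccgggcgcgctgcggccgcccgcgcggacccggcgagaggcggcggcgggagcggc
BAK1, chr6:33580227-33580526, minus strand: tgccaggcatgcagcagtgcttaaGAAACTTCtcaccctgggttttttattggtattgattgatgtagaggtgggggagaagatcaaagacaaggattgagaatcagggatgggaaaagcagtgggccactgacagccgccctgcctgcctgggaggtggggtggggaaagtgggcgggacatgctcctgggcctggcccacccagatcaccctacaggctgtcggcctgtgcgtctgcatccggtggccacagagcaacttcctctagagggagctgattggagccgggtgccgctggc
BID, chr22:17773934-17774233, minus strand: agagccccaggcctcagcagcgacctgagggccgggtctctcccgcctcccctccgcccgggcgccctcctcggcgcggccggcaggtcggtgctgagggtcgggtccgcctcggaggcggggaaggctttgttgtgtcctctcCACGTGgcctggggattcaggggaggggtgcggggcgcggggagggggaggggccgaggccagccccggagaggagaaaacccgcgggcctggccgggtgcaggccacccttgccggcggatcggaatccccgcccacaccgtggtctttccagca
The PMAIP1 window held 1 match to the cAMP response element core, from position -56 to -51 before the start, and no other member with a window held one. Of all 35116 promoter windows in the table, 7.98% held this core. BAX held 4 E-boxes, BBC3 held 1, and of the 5 BID windows 2 overlapping ones held the same single site, against 7.26% of all windows with an E-box. Counted by gene, 3 of the 9 members with a window held an E-box, beside 8.77% of all genes with a window. Whether these shares differ was not tested. BAK1 held 1 heat shock element core (6.77% of all windows) and BBC3 held 1 AP-1 site (7.71%). A match gives the presence of these letters and is not a measurement of binding.

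MCL1 had the highest level per length of the family in vehicle, at 10.80 on the scale of rlog minus log2 of the exonic length in kb. It was followed by BCL2L1 at 9.76, BAX at 9.21, BID at 8.54 and PMAIP1 at 8.12. A lower set held BBC3, which encodes PUMA, at 6.30, BAK1 at 6.13, BCL2A1 at 4.56, BCL2L11, which encodes BIM, at 4.15 and BCL2 at 3.08. No neighbours in this order overlapped over the 3 vehicle libraries, the closest being BBC3 (6.26 to 6.33) and BAK1 (6.12 to 6.15). The spread over libraries does not include the choice of length, which was the union of all GENCODE 29 exons, from 1089 bp for BCL2A1 to 11765 bp for BCL2. In these cells the survival genes stood at both ends of the order.

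**Figure D1:**
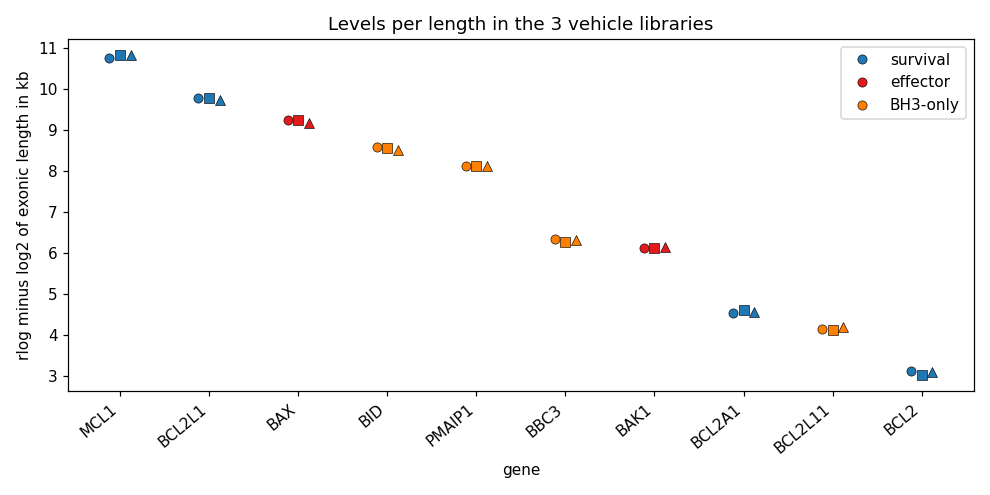
Level per length of the 10 members in vehicle, as rlog minus log2 of the exonic length in kb on the vertical axis, with 1 point for each of the 3 libraries and colours for survival, effector and BH3-only genes. MCL1 stands highest at 10.80, BCL2L1 follows at 9.76, and BCL2 stands lowest at 3.08.

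Values of the whole series that touch these results were as follows. Beside the marker counts, 19.0% of all genes tested were called higher and 21.6% lower with compound 4, and 15.9% and 19.2% with compound 5. For compound 1 these shares were 5.24% and 5.63%. Of 11 markers of glioma and mesenchymal glioblastoma cells 9 reached the minimum mean of 3, with mean rlog values of 15.98 for VIM, 15.20 for CD44 and 10.55 for NES, while SOX2 (0.092) and S100B (0.77) lay below it. With compound 4, 1 of these 9 rose (CD44 by 0.19) and 4 fell, led by NES at -0.27 and VIM at -0.22, and with compound 5, 2 rose (TNC by 0.20 and CD44 by 0.20) and 2 fell (PDGFRA by 0.15 and NES by 0.12). With compound 1, TNC alone of these 9 rose, by 0.21, and 0 fell. The summed glioma level on the log2 scale was 17.35 to 17.40 in vehicle and 17.45 to 17.48 with compound 1. It was 17.34 to 17.37 with compound 4 and 17.50 to 17.54 with compound 5. Of 5 neuronal markers 4 were tested: SNAP25 rose by 0.55 with compound 4 and 0.61 with compound 5, SYT1 fell by 0.20 and 0.26, GAD1 rose by 0.16 with compound 5, and RBFOX3, with a mean of 4.42, did not pass. The summed neuronal level was 9.76 to 9.81 in vehicle, 9.80 to 9.81 with compound 1, 10.04 to 10.13 with compound 4 and 10.10 to 10.16 with compound 5. Of 5 endothelial markers 3 were tested and VWF fell, by 0.39 with compound 4 and 0.31 with compound 5, with CLDN5 at -0.30 and CDH5 at 1.62 in the mean. The summed endothelial level was 7.84 to 7.97 in vehicle, 7.91 to 7.95 with compound 1, 7.82 to 7.88 with compound 4 and 7.75 to 7.85 with compound 5. Of 5 epithelial markers 2 were tested, KRT8 fell by 0.25 with compound 4, and CDH1 had a mean of -0.079. The summed epithelial level was 6.94 to 7.08 in vehicle, 6.94 to 7.02 with compound 1, 6.79 to 6.81 with compound 4 and 6.88 to 7.05 with compound 5. The part of these markers in the results was not tested. BCL2A1 is known from blood cells, and of 7 leukocyte markers 6 lay below 3, with PTPRC at 0.069 and CD3E at -2.21. The summed leukocyte level on the log2 scale was 4.31 to 4.35 in vehicle, 4.31 to 4.33 with compound 1, 4.34 to 4.36 with compound 4 and 4.33 to 4.36 with compound 5. All 13 mitochondrially encoded mRNAs rose with compounds 4 and 5, by medians of 0.39 and 0.57. With compound 1, 3 of these 13 rose and 0 fell (median 0.14). Of 17 nuclear-retained transcripts, 10 rose and 0 fell with compound 1, 9 and 2 with compound 4, and 13 and 1 with compound 5. The mean level of 17 nuclear-retained transcripts was 10.15 to 10.39 in vehicle, 10.36 to 10.58 with compound 1, 10.45 to 10.47 with compound 4 and 10.45 to 10.60 with compound 5. The vehicle range did not overlap those of compounds 4 and 5, so a fit with this level cannot separate it from the treatment. With this level as a covariate, MCL1 was 0.43 above vehicle with compound 4 and 0.29 with compound 5 (limma, Benjamini-Hochberg adjusted p = 4.72e-07 and 0.00232). BAX with compound 4 was then 0.22 above vehicle, PMAIP1 with compound 4 was 0.18 above and BID with compound 5 was 0.31 above (limma adjusted p = 0.00157, 0.0136 and 0.00196). BCL2A1 and BAK1 with compound 4 (limma adjusted p = 0.147 and 0.0844) and BCL2 with compound 5 (0.167) did not pass with it, and the part of the mitochondrial mRNAs in the results was not tested. In bulk RNA, fewer cells of a type and less RNA per cell cannot be told apart.

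The comparison of compound 4 with vehicle asked which members changed after 72 h at 10 µM. The survival gene MCL1 and the BH3-only gene PMAIP1 rose most, and both effector genes and BCL2A1 rose less. In all, 5 of 10 members rose and 0 fell (limma, Benjamini-Hochberg adjusted p under 0.05), made up of 2 of 4 survival genes, 2 of 2 effectors and 1 of 4 BH3-only genes. Over all genes tested 19.0% were called higher and 21.6% lower, or 40.6% in either direction. Only the share of members called in either direction lay near the background, and the split by direction was not tested. The median difference was 0.098 over the 10 members and -0.0013 over all genes tested. The count was 3, namely MCL1, BAX and PMAIP1, without replicate 1 of vehicle or without replicate 3 of compound 4.

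MCL1 (ENSG00000143384.14, GRCh38 chromosome 1, 150574551 to 150579738) had rlog values of 12.88, 12.95 and 12.95 in vehicle and 13.26, 13.31 and 13.32 with compound 4. The groups did not overlap, and all 3 treated libraries lay above all vehicle libraries. The rise was 0.37 (SE 0.042, 95% interval 0.29 to 0.46, n = 3 per group), 1.29-fold on the rlog scale (limma, Benjamini-Hochberg adjusted p = 4.10e-08). It lay between 0.35 and 0.43 under all 21 other settings.

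PMAIP1 (ENSG00000141682.12, chromosome 18, 59899948 to 59904306), whose protein binds and neutralizes MCL1, had values of 9.28 in all 3 vehicle libraries and 9.50, 9.55 and 9.55 with compound 4. Every treated library lay above every vehicle library. The rise was 0.25 (SE 0.044, 95% interval 0.16 to 0.34), 1.19-fold on the rlog scale, with a limma adjusted p of 3.31e-05. Genes of factors from the stress response also rose with compound 4: ATF3 by 0.89 and DDIT3, which encodes CHOP, by 0.38. ATF4, named here after its value was seen, fell by 0.23. Any link of these genes to the rise of PMAIP1 was not tested.

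The effectors rose together with compound 4. BAX (ENSG00000087088.21, chromosome 19, 48954815 to 48961798) had values of 10.61, 10.61 and 10.53 in vehicle and 10.68, 10.78 and 10.74 with compound 4, without overlap. It rose by 0.15 (SE 0.040, limma adjusted p = 0.00322). BAK1 (ENSG00000030110.14, chromosome 6, 33572547 to 33580293) had values of 7.27, 7.26 and 7.29 in vehicle and 7.39, 7.38 and 7.42 with compound 4, again without overlap. It rose by 0.12 (SE 0.044, limma adjusted p = 0.0257). The call for BAK1 was lost without replicate 1 or 2 of vehicle or without replicate 1 or 3 of compound 4, with limma adjusted p from 0.0520 to 0.0828. The pseudogene BAK1P1 had a mean of 1.55, below the minimum tested.

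BCL2A1 (ENSG00000140379.9, chromosome 15, 79960889 to 79971446), an NF-kB-induced survival gene, had values of 4.65, 4.72 and 4.67 in vehicle and 4.77, 4.72 and 4.88 with compound 4. Replicate 2 of compound 4 lay within the vehicle range, and replicate 3 was highest. The rise was 0.11 (SE 0.034, limma adjusted p = 0.0106). Without that highest library the difference was 0.063 and no longer passed (limma adjusted p = 0.133), and without replicate 1 of vehicle it did not pass either (0.0599).

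The other members did not pass with compound 4. BCL2 was 0.087 above vehicle (95% interval -0.0020 to 0.18), BCL2L1 (ENSG00000171552.14, chromosome 20, 31664452 to 31723989) was 0.050 above (-0.022 to 0.12) and BCL2L11 (ENSG00000153094.24, chromosome 2, 111119378 to 111168447) was 0.080 above (-0.012 to 0.17). BID was 0.022 above vehicle (-0.063 to 0.11) and BBC3 (ENSG00000105327.18, chromosome 19, 47220822 to 47232766) was below it, at -0.041 (-0.13 to 0.049). BCL2 and BCL2L1 lay above vehicle in all 3 libraries without overlap, as did 6 members in total, against 25.2% of all genes tested, and 0 members lay below without overlap against 28.2%. With quantile-normalized libraries BCL2L1 passed at 0.10 (limma adjusted p = 0.0176). BCL2L11 shares 727 bp, or 10.9% of its exonic length, with exons of MIR4435-2HG on the opposite strand. That gene had a mean of 9.07 against 6.90 for BCL2L11, and no source used here gives the strand setting of the counts, so the value of BCL2L11 is uncertain. BCL2L1 likewise shares 1424 bp, or 43.0% of its exonic length, with the antisense gene ABALON, which had a mean of -1.73.

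**Figure D2:**
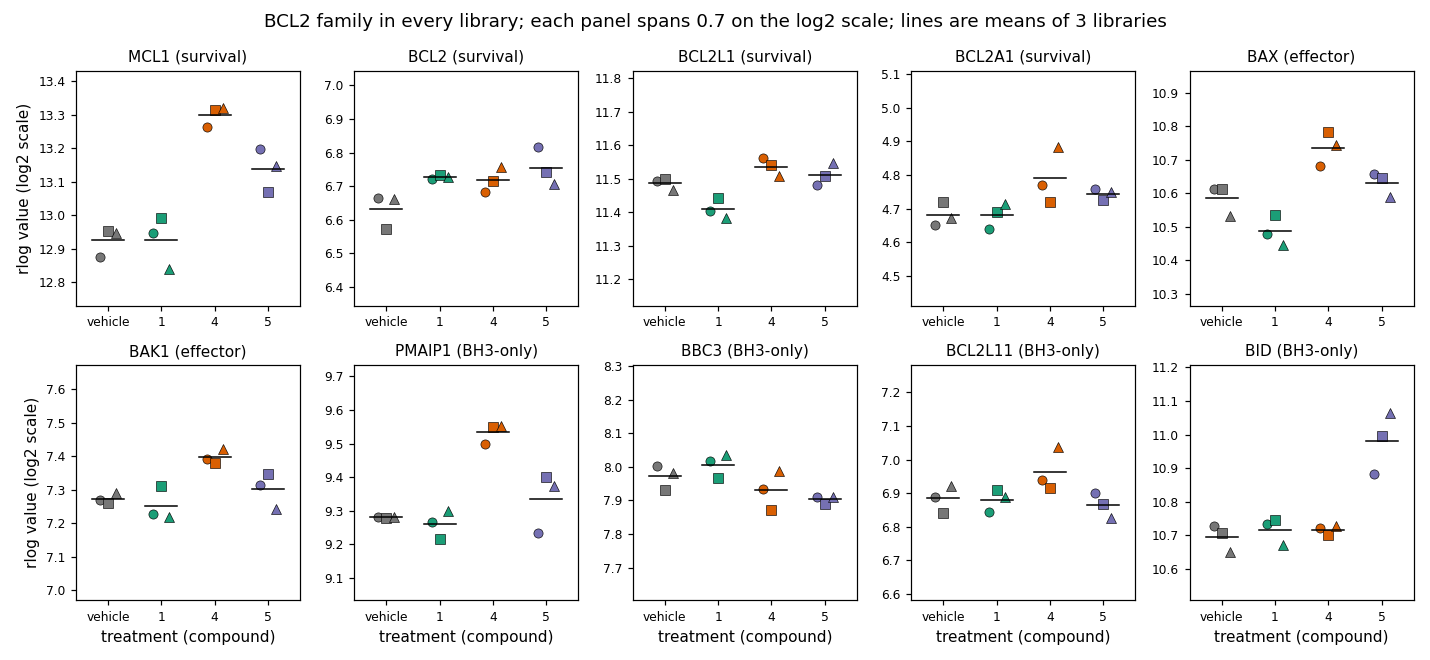
Rlog values of the 10 members in each of the 12 libraries, in 1 panel per gene that spans 0.7 on the log2 scale, with circles, squares and triangles for replicates 1, 2 and 3 and lines for the means of 3 libraries. MCL1 and PMAIP1 stand highest with compound 4 (means of 13.30 and 9.53), and BID stands highest with compound 5 (mean of 10.98).

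Compound 5 was compared with vehicle at 5 µM. BID and MCL1 rose most and BCL2 rose less, while both effectors and PMAIP1 did not pass. In all, 3 of 10 members rose and 0 fell, made up of 2 of 4 survival genes, 0 of 2 effectors and 1 of 4 BH3-only genes. Over all genes tested 15.9% were called higher and 19.2% lower, or 35.1% in either direction, near the share of members called. The median difference was 0.050 over the members and -9.45e-04 over all genes tested.

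BID (ENSG00000015475.19, chromosome 22, 17734138 to 17774770) encodes the BH3-only protein that caspase 8 cleaves to carry a death receptor signal to mitochondria. It had values of 10.73, 10.71 and 10.65 in vehicle and 10.88, 11.00 and 11.06 with compound 5. The groups did not overlap, and replicate 1 of compound 5 lay nearest to vehicle. The rise was 0.29 (SE 0.041, 95% interval 0.20 to 0.37), 1.22-fold on the rlog scale (limma, Benjamini-Hochberg adjusted p = 4.62e-06). CASP8, which encodes that protease, rose by 0.15 with compound 5 (limma adjusted p = 0.0123), a gene chosen after its value was seen.

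MCL1 had values of 13.20, 13.07 and 13.15 with compound 5, all above the highest vehicle value of 12.95. The rise was 0.21 (SE 0.042, 95% interval 0.13 to 0.30, limma adjusted p = 2.26e-04). BCL2 (ENSG00000171791.14, chromosome 18, 63123346 to 63320128) had values of 6.66, 6.57 and 6.66 in vehicle and 6.82, 6.74 and 6.71 with compound 5, without overlap. It rose by 0.12 (SE 0.043, limma adjusted p = 0.0292). BCL2 no longer passed when replicate 2 of vehicle (limma adjusted p = 0.154) or replicate 1 of compound 5 (0.135) was left out.

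PMAIP1 had values of 9.23, 9.40 and 9.37 with compound 5, so that replicate 1 lay below vehicle and the others above it. The difference was 0.056 (95% interval -0.034 to 0.15, limma adjusted p = 0.342). Without replicate 1 of compound 5 it was 0.11 and passed (limma adjusted p = 0.0441). BAX was 0.045 above vehicle (-0.037 to 0.13), BAK1 was 0.027 above (-0.063 to 0.12) and BCL2L1 was 0.026 above (-0.046 to 0.099). BCL2A1 was 0.064 above vehicle (-0.0054 to 0.13), BBC3 was at -0.069 (-0.16 to 0.021) and BCL2L11 at -0.020 (-0.11 to 0.071). BCL2A1 stood above vehicle without overlap, as did 4 members in total against 20.9% of all genes tested, and BBC3 alone stood below without overlap against 23.2%.

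Compound 1 was compared with vehicle at 30 µM, and 0 of 10 members passed in limma with Benjamini-Hochberg adjustment, against 10.9% of all genes called, 5.24% higher and 5.63% lower. At an unadjusted p under 0.05 limma gave 3 members: BAX at -0.099 (95% interval -0.18 to -0.018), BCL2L1 at -0.076 (-0.15 to -0.0042) and BCL2 at 0.095 (0.0064 to 0.18). The adjusted p of these was 0.109, 0.173 and 0.167 in the limma fit. BCL2 had values of 6.72, 6.73 and 6.73 with compound 1, all above vehicle, and BCL2L1 had values of 11.40, 11.44 and 11.38 against 11.49, 11.50 and 11.47, all below, so that 1 member stood above and 1 below without overlap, beside 13.2% and 16.7% of all genes. MCL1 was within 0.001 of vehicle in the mean, with values of 12.95, 12.99 and 12.84 and a 95% interval of -0.085 to 0.086. PMAIP1 was at -0.020 (-0.11 to 0.069) and BID at 0.022 (-0.063 to 0.11). The other 4 members, BCL2A1, BAK1, BBC3 and BCL2L11, lay between -0.021 and 0.034. The median over the members was -0.0024, beside -0.0029 over all genes tested.

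**Figure D3:**
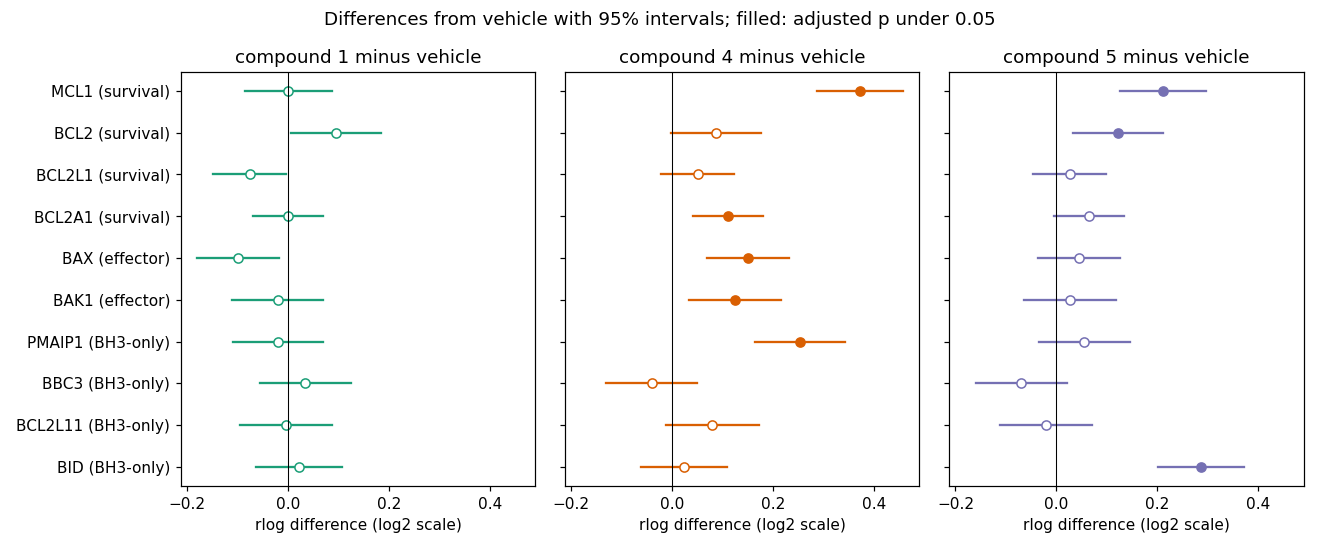
Differences of the 10 members from vehicle on the rlog scale (horizontal axis) for compounds 1, 4 and 5, with 95% intervals from the limma fit and filled points for an adjusted p under 0.05. MCL1 is filled for compounds 4 and 5 (0.37 and 0.21), PMAIP1 for compound 4 (0.25) and BID for compound 5 (0.29).

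Compounds 4 and 5 were then compared with each other as given, at 10 and 5 µM, since MCL1 rose with each. BID was 0.26 higher with compound 5 (SE 0.041, 95% interval 0.18 to 0.35, limma adjusted p = 2.77e-05), and its compound 4 libraries, at 10.72, 10.70 and 10.73, all lay below those of compound 5. PMAIP1 was lower with compound 5, by -0.20 (SE 0.044, limma adjusted p = 0.00148), with no overlap. MCL1 was lower by -0.16 (SE 0.042, limma adjusted p = 0.00579), and this call was lost without replicate 2 of compound 5 (0.0580). In all 1 member was higher and 2 lower with compound 5, beside 10.7% and 11.4% of all genes tested (22.0% in either direction). Without overlap 1 member stood higher and 5 lower, beside 17.5% and 17.6% of all genes. BAX missed the threshold at -0.11 (95% interval -0.19 to -0.024, limma adjusted p = 0.0559), as did BAK1 at -0.097 (-0.19 to -0.0064) and BCL2L11 at -0.100 (-0.19 to -0.0086). BAX passed without replicate 3 of compound 1 (0.0499), replicate 1 of compound 4 (0.0424) or replicate 1 of compound 5 (0.0306). BCL2 differed by 0.035 (-0.054 to 0.12), BCL2L1 by -0.024 (-0.096 to 0.049), BCL2A1 by -0.046 (-0.12 to 0.024) and BBC3 by -0.028 (-0.12 to 0.063).

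Compounds 4 and 5 were also compared with compound 1. With compound 4 at 10 µM, 6 of 10 members were higher than with compound 1 at 30 µM and 0 were lower, beside 20.9% and 21.8% of all genes tested (42.7% in either direction). Only the share called in either direction lay near the background, and the split by direction was not tested. Without overlap 7 members stood higher and 0 lower, beside 26.0% and 27.0% of all genes. MCL1 led at 0.37 (limma adjusted p = 3.74e-08), followed by PMAIP1 at 0.27 (1.04e-05), BAX at 0.25 (9.51e-06), BAK1 at 0.15, BCL2L1 at 0.13 and BCL2A1 at 0.11. The last of these did not pass without replicate 3 of compound 4 (limma adjusted p = 0.124) or without replicate 1 of compound 1 (0.0649). With compound 5, 4 members were higher than with compound 1 and 0 were lower, beside 13.9% and 16.2% of all genes (30.1% in either direction): BID at 0.27, MCL1 at 0.21, BAX at 0.14 and BCL2L1 at 0.10. BCL2L1 lost that call without replicate 1 or 3 of compound 1 or without replicate 2 or 3 of compound 5, with limma adjusted p from 0.0566 to 0.113. PMAIP1, at 0.076, passed without replicate 1 of compound 5 (0.13, limma adjusted p = 0.0193). Without overlap 5 members stood higher and 1, BBC3, lower, beside 18.8% and 20.2% of all genes. Both comparisons share the compound 1 libraries, in which BAX and BCL2L1 had their lowest group means.

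The order of the groups differed from member to member. MCL1 ran from vehicle and compound 1, both with a mean of 12.93, to compound 5 at 13.14 and compound 4 at 13.30. PMAIP1 ran from compound 1 at 9.26 and vehicle at 9.28 to compound 5 at 9.34, which did not differ beyond their spread, and on to compound 4 at 9.53. BID stood at 10.69 in vehicle and 10.72 with both compounds 1 and 4, and apart from these at 10.98 ± 0.091 (SD, n = 3) with compound 5. BAX ran from compound 1 at 10.49 through vehicle at 10.59 and compound 5 at 10.63 to compound 4 at 10.74, and BCL2L1 followed the same order from 11.41 to 11.54. BBC3 covered a narrow range from 7.90 with compound 5 to 8.01 with compound 1, and none of its 6 comparisons passed, although compound 5 against compound 1 did with quantile-normalized libraries (limma adjusted p = 0.0475) or no mean-variance trend (0.0337). BCL2L11, from 6.86 to 6.96, passed in none of the 6 either.

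Survival and death members were also set against each other within each library, as the difference of their rlog values, which describes their balance without a test. Of the 24 pairs of a survival and a death member, 8 stood above vehicle without overlap and 5 below with compound 4, 8 above and 2 below with compound 5, and 6 above and 2 below with compound 1. The pairs share members, and the share of such pairs over all genes was not counted. Among single genes tested, 25.2% stood above and 28.2% below without overlap with compound 4. With compound 5 these shares were 20.9% and 23.2%, and for compound 1 they were 13.2% and 16.7%. The pairs with MCL1 stood above vehicle in 6 of 6 cases with compound 4 and in 4 of 6 with compound 5. All 6 reuse the same MCL1 values, so they describe 1 gene and not 6 independent cases. MCL1 rose most of the members with compound 4, by 0.37, so each mean shift there had to be upward. MCL1 minus PMAIP1 was 3.59, 3.68 and 3.67 in vehicle and 3.76, 3.76 and 3.77 with compound 4, a shift of 0.12 without overlap although both genes rose. With compound 5 it was 3.96, 3.67 and 3.77, and the lowest of these lay within the vehicle range. MCL1 minus BID was 2.23 in the mean in vehicle and 2.58 with compound 4, above vehicle without overlap. With compound 5 it was 2.16, a shift of -0.075, and its range of 2.07 to 2.31 overlapped the 2.15 to 2.30 of vehicle. MCL1 minus BAX (0.22 and 0.17) and MCL1 minus BAK1 (0.25 and 0.18) shifted upward without overlap with compounds 4 and 5. For MCL1 minus BAX with compound 5 the gap was small, with a lowest value of 2.423 against a highest of 2.416 in vehicle. MCL1 minus BBC3 had the largest shift of the 6 MCL1 pairs with each of these compounds, from 4.95 ± 0.076 (SD, n = 3) in vehicle to 5.37 ± 0.066 with compound 4 and 5.23 ± 0.053 with compound 5, and neither group overlapped vehicle. MCL1 minus BCL2L11 was 6.04 ± 0.064 in vehicle, 6.33 ± 0.058 with compound 4 and 6.27 ± 0.063 with compound 5, also without overlap, within the limit given for BCL2L11 above.

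The pairs with BCL2L1 stood below vehicle without overlap in 3 of 6 cases with compound 4. With compound 5, 1 stood below and 1 above. All 6 pairs reuse the values of BCL2L1, which itself stood above vehicle without overlap with compound 4. The 3 pairs below vehicle there were those with BAX, BAK1 and PMAIP1, which each rose more than BCL2L1. BCL2L1 minus BID shifted by -0.26 with compound 5, from 0.77 to 0.82 in vehicle to a range of 0.48 to 0.60. BCL2L1 minus PMAIP1 shifted by -0.20 with compound 4, from 2.19 to 2.22 in vehicle to a range of 1.95 to 2.06. BCL2L1 minus BBC3 stood above vehicle with compound 5, by 0.095, with the nearest libraries less than 0.01 apart. BCL2L1 minus BAX was 0.88, 0.88 and 0.93 in vehicle and 0.88, 0.76 and 0.76 with compound 4, a mean shift of -0.10 with no overlap, though the nearest libraries were less than 0.01 apart. BCL2L1 minus BAK1 shifted by -0.074 with compound 4, from 4.18 to 4.24 in vehicle to a range of 4.08 to 4.17. The nearest libraries of this pair were also less than 0.01 apart. BCL2L1 minus BCL2L11 overlapped vehicle with each compound. With compound 1 all 6 MCL1 pairs overlapped vehicle, 5 of 6 BCL2 pairs stood above it, and BCL2L1 minus BBC3 and BCL2L1 minus BID stood below it, by -0.11 and -0.098. The BCL2 pairs reuse the values of 1 gene, which did not itself pass with compound 1 (limma adjusted p = 0.167).

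**Figure D4:**
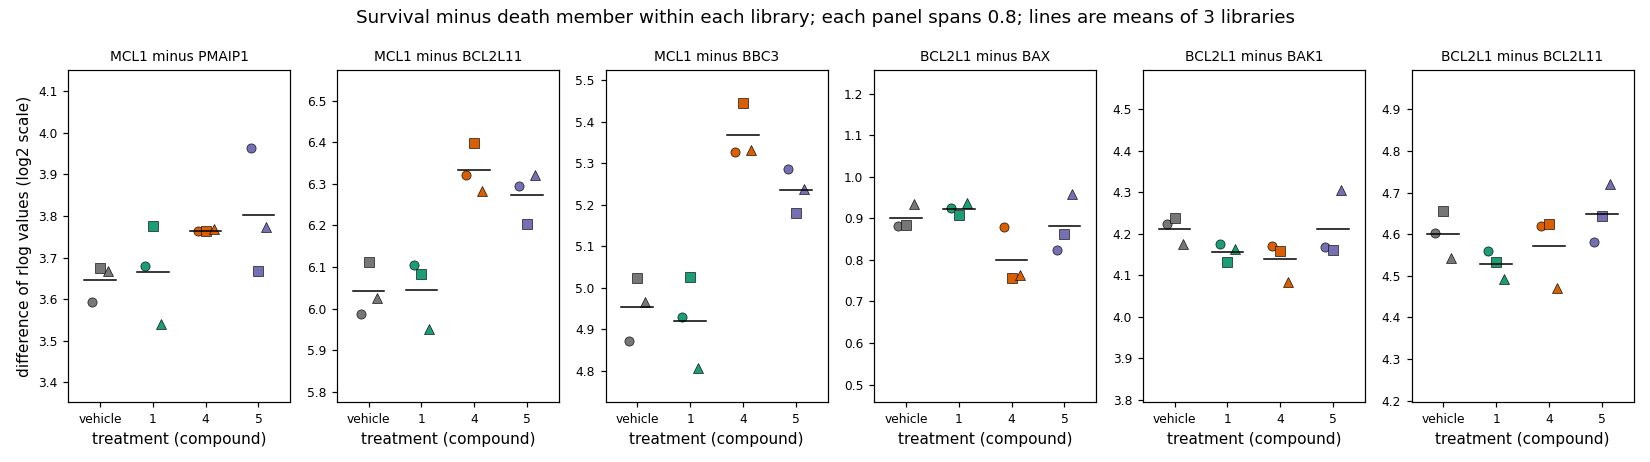
Difference of rlog values for 6 of the 24 pairs of a survival and a death member in each of the 12 libraries (vertical axis, log2 scale), in 1 panel per pair that spans 0.8, with circles, squares and triangles for replicates 1, 2 and 3 and lines for the means of 3 libraries. MCL1 minus BBC3 and MCL1 minus BCL2L11 stand above vehicle with compounds 4 and 5, and BCL2L1 minus BAX stands below vehicle with compound 4.

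Genes with the library pattern nearest to a member were found by the root mean square distance over the 12 libraries after each gene was centred on its mean. For MCL1 they were TIPARP at 0.038, MED22 at 0.041, WNT5A at 0.042 and CD6 at 0.042, where the median over all genes tested was 0.17. TIPARP, a mono-ADP-ribosyltransferase gene, had means of 9.48 in vehicle, 9.46 with compound 1, 9.84 with compound 4 and 9.65 with compound 5. For PMAIP1 the nearest were ATP6V1G1 at 0.040, CD300LB at 0.042, HES1 at 0.043 and FTL, the ferritin light chain gene, at 0.044 (median 0.13). Near BCL2L1 lay SNAP29 at 0.022 and NDUFA4 and POLR2E at 0.025 (median 0.082). These distances describe levels in the same libraries and were not tested.

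Genes around the family were read from 4 lists. Beside the counts of these lists, 19.0% of all genes tested were called higher and 21.6% lower with compound 4. With compound 5 these shares were 15.9% and 19.2%, and for compound 1 they were 5.24% and 5.63%. Whether a list departed from these shares was not tested. Among 12 tested of 18 other BCL2 family and related genes, 3 rose and 3 fell with compound 4 (limma, median 0.028 beside -0.0013 over all genes), with BNIP1 at -0.28, MOAP1, a partner of BAX, at 0.24, BECN1 at 0.18 and BCL2L12 at 0.16. With compound 5, 3 rose and 4 fell (median 0.014), with BNIP3 at 0.53, BNIP3L at 0.23, BNIP1 at -0.18 and BCL2L13 at -0.18. BNIP3 and BNIP3L, mitophagy receptor genes, were also the 2 that rose with compound 1, by 0.40 and 0.18, while with compound 4 BNIP3 was at 0.042 and did not pass and BNIP3L fell by 0.12. BIK, HRK, BOK, BCL2L10, BCL2L14 and BCL2L15 lay below the minimum mean of 3 and were not tested.

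In the mitochondrial death machinery, from cytochrome c and APAF1 to caspases and their inhibitors, 3 of 23 genes rose and 2 fell with compound 4 (median 0.045). They were led by BIRC3 at 0.31, HTRA2 at 0.17, BIRC2 at 0.16 and APAF1 at -0.13; BIRC3 and BIRC2 encode the inhibitors cIAP2 and cIAP1. With compound 5, 4 rose and 3 fell (median 0.019), with BIRC3 at 0.22, XIAP at -0.20, BIRC2 at 0.18 and CASP9 at -0.16. With compound 1, 0 rose and 2 fell (median -0.054), AIFM1 at -0.19 and BIRC5 at -0.18.

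Among 24 genes listed as regulators of the family, 5 rose and 5 fell with compound 4 (median -0.0036). ATF3 rose by 0.89 and DDIT3 by 0.38, whereas STAT3, a known activator of MCL1 transcription, fell by 0.35 and BTRC, a ubiquitin ligase subunit, by 0.28. MDM2 rose by 0.26, a gene chosen after its value was seen. With compound 5, 5 rose and 8 fell (median -0.024), with TRIB3 at -0.42, ATF4 at -0.36, BTRC at -0.27 and NFKB1 at -0.23, and ATF3 (0.038), DDIT3 (-0.055) and MDM2 (0.077) did not pass. ATF3 was lower with compound 5 than with compound 4, at -0.86 (limma adjusted p = 4.86e-14). With compound 1, 2 rose and 2 fell (median -0.018), TRIB3 at 0.15 and FBXW7 at 0.14 against E2F1 at -0.18 and YWHAB at -0.14.

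Genes of death receptors and of proteins that act with them moved in both directions. Of 12 tested, 6 rose and 1 fell with compound 4 (median 0.082): the decoy receptor gene TNFRSF10D rose by 0.49, TNFRSF10B, which encodes the TRAIL receptor DR5, by 0.25 and CFLAR, the caspase 8 inhibitor gene, by 0.19, and TNFRSF1A fell by 0.43. With compound 5, 4 rose and 1 fell (median 0.051), with TNFRSF10D at 0.32, CFLAR at 0.19, FAS at 0.18 and TNFRSF1A at -0.24, and TNFRSF10B, at 0.044, did not pass. With compound 1, 0 rose and 2 fell (median -0.023), TNFRSF10D at -0.20 and TNFRSF1A at -0.13.

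**Figure D5:**
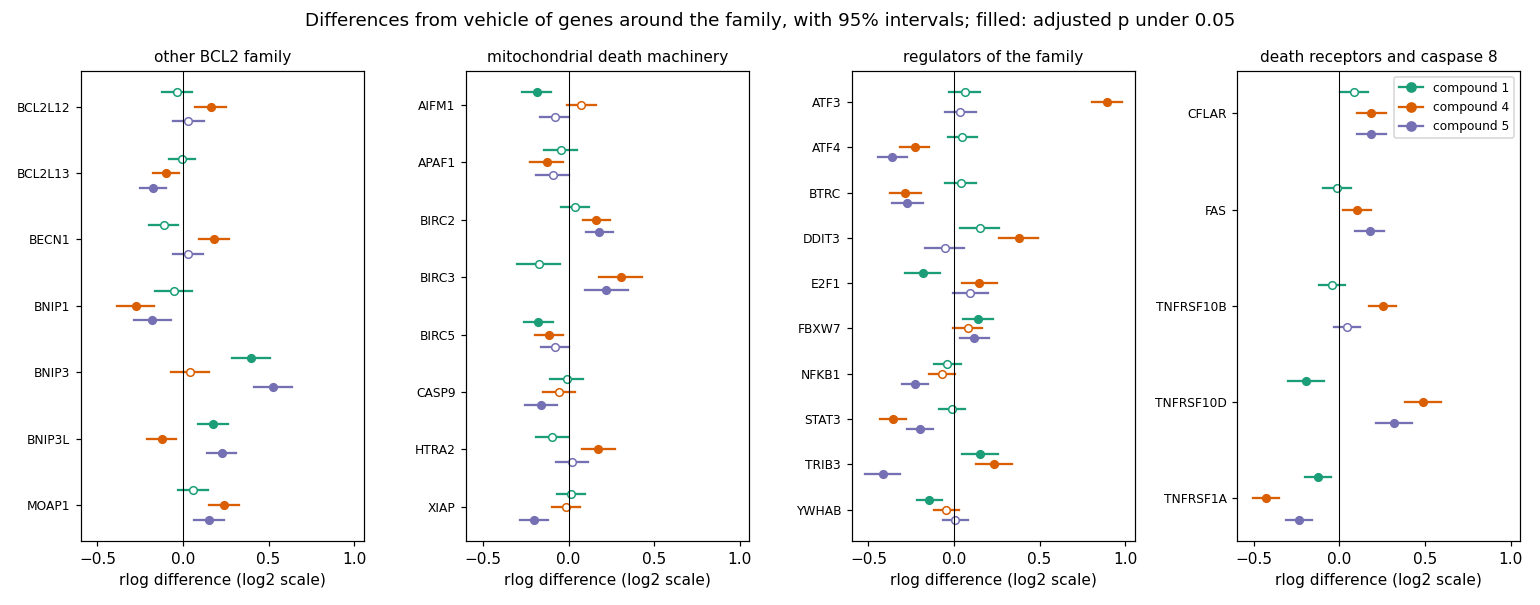
Differences from vehicle on the rlog scale (horizontal axes) for genes of the 4 lists, with 95% intervals from the limma fit. Colours mark compounds 1, 4 and 5, and filled points mark an adjusted p under 0.05. Each list is drawn with up to 4 called genes of largest difference for each compound, so MDM2 and CASP8 are left out. ATF3 stands farthest to the right with compound 4 at 0.89, BNIP3 is filled for compounds 1 and 5 (0.40 and 0.53), and TNFRSF10D is higher with compounds 4 and 5 and lower with compound 1.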

How the data were processed

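Poly(A) RNA of U87 cells was sequenced in 12 libraries. The submitters' processing notes name STAR 2.7.10a, DESeq2 1.30.1 and the build GRCh38. The deposited values are the authors' regularized log values on the log2 scale. The counting tool, annotation, strand setting and filters were not found in the sources used here, and depth is unknown, so the spread between libraries sets the precision.

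Symbols were matched by Ensembl identifier (62686 of 62757 rows). A model with 1 mean for each group was fitted to the 12 libraries with limma 3.58.1 (R 4.3.3) for the 15524 genes with a mean of at least 3, with a mean-variance trend, and p-values were adjusted by Benjamini-Hochberg over these genes in each of 6 comparisons. Median residual SD was 0.0468 on 8 degrees of freedom. The fit was tested on simulated data. Members, lists, tests and settings were chosen with earlier results of these data known. Besides the 10 members, the text names up to 4 called genes with the largest difference from each list and the 4 genes nearest to MCL1, PMAIP1 and BCL2L1, and some of these genes are not reported here. Coordinates and exonic lengths are from GENCODE 29 on GRCh38. The alternatives were no filter, a minimum mean of 5, other scalings and variance settings, only the 2 groups compared, a replicate block, a nuclear-retained covariate and leaving out each library. Figures were made with Python 3.11.15 and matplotlib 3.10.9.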

Additional observations from a re-analysis of the deposited data

How the results depend on the processing

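The number of members called with compound 4 against vehicle was 3 with the nuclear-retained level as a covariate, where 5 were reported, and 3 to 5 when single libraries were left out. Without single libraries it was 0 for compound 1 throughout, 2 to 3 for compound 5, 5 to 6 for compound 4 against compound 1, 3 to 5 for compound 5 against compound 1 and 2 to 4 for compound 5 against compound 4. The cause was not tested. The nuclear-retained level differed between vehicle and compounds 4 and 5 without overlap, so counts with this covariate cannot be told apart from the treatment. No called difference of a member changed sign under any alternative. Over all genes, 1688 were called with compound 1, but 800 without a filter, 493 with the covariate and 849 to 2363 without single libraries, and 5443 with compound 5, but 2434 with the covariate. Deviations of same-numbered libraries correlated at -0.22 to 0.25, over 0.1 in 4 of 18 pairs. Those of differently numbered libraries correlated at -0.26 to 0.26, over 0.1 in 5 of 36 pairs. In all, 6 of 12 libraries were closest to their own number. With 3 libraries per group, these values do not settle whether the replicate numbers pair the libraries. With the replicate block 0, 5 and 3 members were called for compounds 1, 4 and 5 against vehicle, 6 and 4 for compounds 4 and 5 against compound 1, and 4 for compound 5 against compound 4, where BAX joined (limma adjusted p = 0.0461). Filtering at a mean of 5 left out BCL2A1, and without a filter BCL2A1 did not pass with compound 4 (limma adjusted p = 0.0597). With only the 2 groups compared BCL2 did not pass with compound 5 (0.0508). Against compound 1, BCL2L1 with compound 5 did not pass with only the 2 groups compared (0.0794) or without a filter (0.0585), and BCL2A1 with compound 4 did not pass without a filter (0.0549).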
